A study of Saccharomyces cerevisiae with 4 samples.

Results

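The 36 genes described here act in glucose repression in budding yeast (Saccharomyces cerevisiae) and were taken as a list of gene symbols by their known roles, drawn up with earlier results of these data known. They comprise 22 genes for enzymes and transporters that let cells use carbon sources other than glucose, and 14 genes for the proteins that regulate them. All 36 were found on the array, through 38 of its probe sets, among 5656 genes that could be named from a probe set matched to a single gene. When glucose is plentiful, yeast keeps many of these enzyme and transporter genes low, in part through the repressor Mig1. When glucose runs out, the protein kinase Snf1, the yeast AMP-activated kinase, becomes active. It relieves Mig1 repression and promotes transcription through the activators Cat8, Sip4 and Adr1, so that ethanol, acetate, lactate and glycerol can be used. The Glc7 phosphatase, directed by its subunit Reg1, reverses the activation of Snf1.

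The wild-type strain was compared with a strain whose histone H3 had glycine in place of 8 lysines. The replaced lysines were residues 4, 9, 14 and 18, residues 23, 27 and 36, and residue 79. Both strains grew in YPD, a rich glucose medium, and were harvested in mid-log phase at an OD600 of 0.5 to 0.7, so glucose was the carbon source supplied to both. There were 2 single-colour arrays of total RNA per strain, labelled replicates 1 and 2. Whether the replicates were separate cultures is not stated, so the spread behind each p-value may be technical. The wild type is also labelled as the control of another H3 mutant (K4, K36 and K79 to glycine), which was not analysed here. Strain background and mating type are not given, so any other difference between the strains and the H3 substitutions cannot be told apart.

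Signals are in the arbitrary linear units of the MAS5 software, and the 4 arrays had close to equal trimmed means, from 125.10 to 125.12. As a measure of background, 13 control probe sets with no matching RNA in yeast read from 0.1 to 11.6. Added control transcripts were brighter on the mutant arrays. The 9 hybridization control probe sets had geometric means of 138 and 141 in wild type against 174 and 201 in the mutant, and 15 probe sets for bacterial control transcripts had 570 and 676 against 695 and 761. In a stretch of consecutively numbered probe sets, with 616 of the brighter genes, the mutant arrays disagreed more than elsewhere, with an SD of their log2 differences of 0.353 against 0.164. That stretch holds 10 of the 36 genes (ICL1, ATO3, DLD1, STL1, ADR1, SNF1, SIP1, GAL83, REG1 and MIG3), and their part in that disagreement was not tested.

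Most of the enzyme and transporter genes were higher in the mutant, while most of the regulators did not pass the test. Of the 36 genes 20 rose, 2 fell and 14 did not pass, where 14.8% of all 5656 genes rose and 13.1% fell, 27.9% together. A gene is said to have risen or fallen where limma's adjusted p was under 0.05. Log2 fold changes are mutant minus wild type on log2(signal + 16), which understates changes of dim genes. The 22 enzyme and transporter genes comprised 16 that rose, 1 that fell and 5 that did not pass, with a median log2 fold change of 0.65. The 14 regulators comprised 4 that rose, 1 that fell and 9 that did not pass, with a median of 0.05, and the median over all genes was -0.01. That these groups of genes differ from each other was not tested.

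In 24 of the 36 genes both mutant arrays read higher than both wild-type arrays, and in 6 both read lower. For all genes these shares were 33.0% and 33.2%. A log2 fold change of 1 or more, with a call, was reached by GUT2, ALD4, JEN1 and PCK1, which is 4 of 36 genes against 1.73% of all genes. This count moves with the offset added to the signal, to 14 of 36 (4.54% of all genes) with an offset of 1 and 1 of 36 (0.654%) with an offset of 64.

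**Figure D1:**
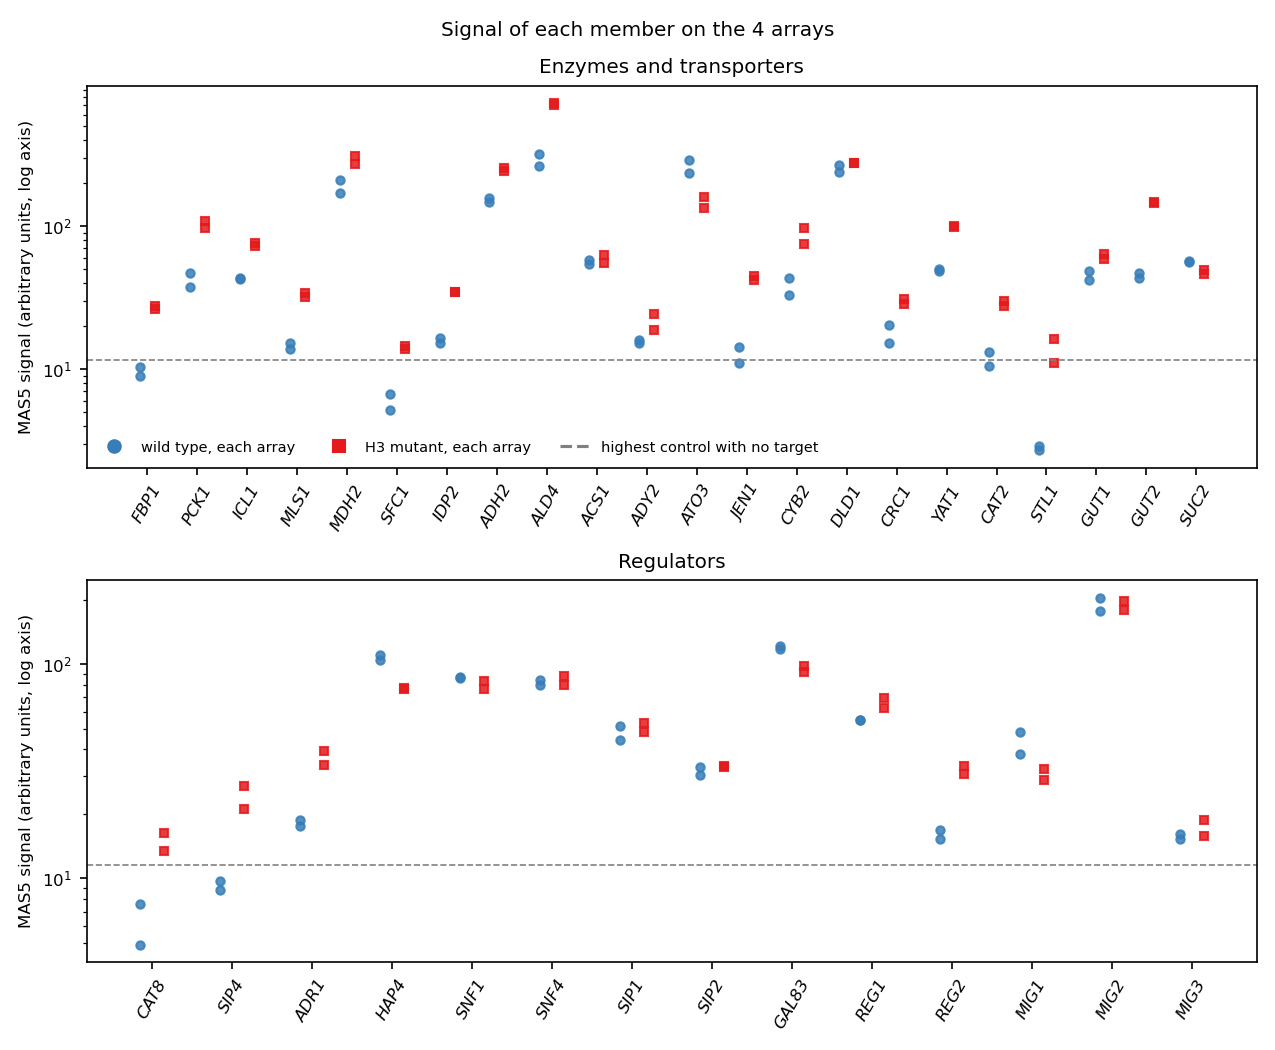
MAS5 signal of each gene on every array, on a log axis, with wild-type arrays as circles and mutant arrays as squares. The dashed line is the highest control with no target, 11.6. Mutant squares lie above wild-type circles for all 7 gluconeogenesis and glyoxylate genes (the first 7 columns), while those of ATO3 and HAP4 lie below.

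Genes of gluconeogenesis and the glyoxylate cycle, which build sugars from C2 and C3 compounds, all rose in the mutant, 7 of 7. By comparison 14.8% of all genes rose, and the median log2 fold change of these 7 was 0.67. PCK1, for the phosphoenolpyruvate carboxykinase of gluconeogenesis, read 47.1 and 37.5 in wild type against 96.5 and 108.8 in the mutant. Its mutant arrays lay above both wild-type arrays by a clear margin. The log2 fold change was 1.03 ± 0.123 (standard error, as for every ± below), with an adjusted p of 0.000812. FBP1, for the fructose-1,6-bisphosphatase that opposes glycolysis, read 9.0 and 10.4 in wild type against 26.5 and 27.7 in the mutant. Both wild-type values fell within the range of the controls with no target and both mutant values above it, and the change was 0.75 ± 0.0921 (adjusted p = 0.000935).

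The glyoxylate cycle lets cells keep both carbons of acetate, and its 2 dedicated enzymes are isocitrate lyase (ICL1) and malate synthase (MLS1). ICL1 gave 43.3 and 42.7 in wild type against 76.5 and 72.2 in the mutant. MLS1 gave 15.3 and 13.9 against 31.9 and 34.2. For both genes the mutant arrays were the higher pair, with log2 fold changes of 0.61 ± 0.105 (adjusted p = 0.00402) and 0.68 ± 0.0981 (adjusted p = 0.00184).

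The other genes of this group supply intermediates or reducing power. MDH2, for the cytosolic malate dehydrogenase, read 170.2 and 210.2 in wild type against 274.1 and 308.1 in the mutant. Its change was 0.58 ± 0.117 (adjusted p = 0.00845). IDP2, for the cytosolic isocitrate dehydrogenase that makes NADPH, read 16.5 and 15.3 against 34.8 and 34.5 and changed by 0.67 ± 0.0976 (adjusted p = 0.00197). SFC1, for a mitochondrial carrier exchanging succinate and fumarate, read 5.2 and 6.7 against 13.9 and 14.6 and changed by 0.46 ± 0.0825 (adjusted p = 0.00479). Its wild-type values were within the range of the controls with no target. The rises of ICL1 and MDH2 depended on how arrays were scaled, with 0.29 (adjusted p = 0.137) and 0.19 (adjusted p = 0.298) when scaled to the hybridization controls, and 0.44 (adjusted p = 0.143) and 0.37 (adjusted p = 0.173) when scaled to the bacterial ones. Dropping wild-type replicate 1 also ended the calls of MDH2 (adjusted p = 0.0682) and SFC1 (adjusted p = 0.0601), and dropping mutant replicate 2 ended that of MDH2 (adjusted p = 0.0667).

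Genes of ethanol and acetate use went in different directions. Of 5 genes 2 rose (ADH2 and ALD4), 1 fell (ATO3) and 2 did not pass (ACS1 and ADY2), with a median log2 fold change of 0.25. Over all genes 14.8% rose and 13.1% fell. ALD4, for the mitochondrial enzyme that oxidises acetaldehyde to acetate, gave 264.2 and 317.9 in wild type against 722.6 and 709.0 in the mutant. With a ratio of mean signals of 2.46, its log2 fold change was 1.26 ± 0.106 (adjusted p = 0.000122), the rank 57 of 5656 genes counted from the highest. ADH2, for the glucose-repressed alcohol dehydrogenase that oxidises ethanol, gave 148.0 and 157.0 against 242.7 and 254.9. The ADH2 arrays of the groups did not overlap, and the change was 0.65 ± 0.0903 (adjusted p = 0.00152). It became 0.44 (adjusted p = 0.101) when scaled to the bacterial controls and 0.26 (adjusted p = 0.136) when scaled to the hybridization controls.

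ACS1, for the acetyl-CoA synthetase that activates acetate and is itself repressed by glucose, did not move with these genes. It read 58.3 and 54.7 in wild type against 55.3 and 63.1 in the mutant, so the groups overlapped, and the 95% interval of its log2 fold change ran from -0.20 to 0.31. ADY2, for an acetate transporter, read 15.1 and 15.9 against 24.1 and 18.8. Its change of 0.25 had an adjusted p of 0.111 and a 95% interval of 0.01 to 0.48. ATO3, a relative of ADY2 with a proposed role in ammonium export, was the exception in sign. It read 235.1 and 290.0 in wild type against 133.1 and 159.8 in the mutant, a log2 fold change of -0.78 ± 0.126 (adjusted p = 0.00318). Only 1.75% of all genes had a log2 fold change as low or lower.

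Lactate is taken up by the carrier Jen1 and oxidised in mitochondria by the lactate dehydrogenases Cyb2 and Dld1, and 2 of these 3 genes rose. The share of all genes that rose was 14.8%. JEN1 gave 14.3 and 11.1 in wild type against 44.8 and 42.2 in the mutant, a log2 fold change of 1.05 ± 0.106 (adjusted p = 0.00034). CYB2, for the enzyme acting on L-lactate, gave 33.1 and 43.7 against 97.3 and 74.5, a change of 0.90 ± 0.147 (adjusted p = 0.00329). Both mutant arrays were higher for each gene, although the CYB2 arrays differed within each group, and CYB2 missed the threshold once wild-type replicate 1 was dropped (adjusted p = 0.0554). DLD1, for the enzyme acting on D-lactate, read 239.3 and 267.7 in wild type against 276.4 and 276.6 in the mutant, so that the mutant pair was only just higher. Its change of 0.12 (adjusted p = 0.367) had a 95% interval of -0.09 to 0.33.

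Carnitine carries acetyl groups between compartments, and the 3 genes for its shuttle all rose, with a median log2 fold change of 0.69. The share of all genes that rose was 14.8%. YAT1, for an acetyltransferase on the outer face of mitochondria, read 50.3 and 48.4 in wild type against 99.1 and 100.5 in the mutant, a change of 0.83 ± 0.102 (adjusted p = 0.000933). CAT2, for the acetyltransferase of mitochondria and peroxisomes, read 10.5 and 13.2 against 30.0 and 27.7, a change of 0.69 ± 0.0998 (adjusted p = 0.00189). Both genes had close replicates in each group and groups that were well apart. CRC1, for the carrier that brings acetylcarnitine into mitochondria, read 15.1 and 20.5 against 28.5 and 30.9. Its change of 0.44 ± 0.113 (adjusted p = 0.0225) was the least secure of the group. CRC1 missed the threshold after either mutant array was dropped (adjusted p = 0.0707 and 0.104 for replicates 1 and 2), after wild-type replicate 1 was (0.129), and when scaled to the bacterial (0.188) or hybridization controls (0.244).

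GUT2 had the largest log2 fold change of the 36 genes on log2(signal + 16), while with an offset of 1 STL1 (1.92) and JEN1 (1.71) lay above it (1.67). Glycerol enters through the symporter Stl1, is phosphorylated by the kinase Gut1 and is then oxidised by the mitochondrial dehydrogenase Gut2. GUT2 gave 47.3 and 43.6 in wild type against 147.7 and 144.9 in the mutant, with a ratio of mean signals of 3.22. Its log2 fold change of 1.40 ± 0.101 (adjusted p = 6.31e-05) ranked 41 of 5656. GUT1 gave 41.7 and 48.6 against 64 and 59.2, and its change of 0.35 ± 0.114 missed the threshold (adjusted p = 0.0533) while its arrays did not overlap. The GUT1 value passed in 6 of the alternative fits, with adjusted p from 0.0229 to 0.0481. STL1 gave 2.7 and 2.9 against 11.0 and 16.2, so that 1 mutant array was above the highest control with no target and 1 below it. Its change of 0.65 ± 0.097 (adjusted p = 0.00219) is of a transcript near background, and it was not called once wild-type replicate 1 was dropped (adjusted p = 0.0522).

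SUC2, for the invertase that splits sucrose and the classical reporter of glucose repression, was not raised. Its brightest probe set read 55.7 and 56.7 in wild type against 49.0 and 46.4 in the mutant, a log2 fold change of -0.18 (adjusted p = 0.232) with a 95% interval of -0.42 to 0.06. A further SUC2 probe set gave 58.6 and 51.6 against 52.4 and 39.9, and another read 0.1 to 0.4 on the arrays. Neither of the SUC2 probe sets that read above the controls with no target was higher in the mutant. When scaled to the hybridization controls the brightest one was called lower, at -0.50 (adjusted p = 0.00818), as were 2748 of all 5656 genes.

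**Figure D2:**
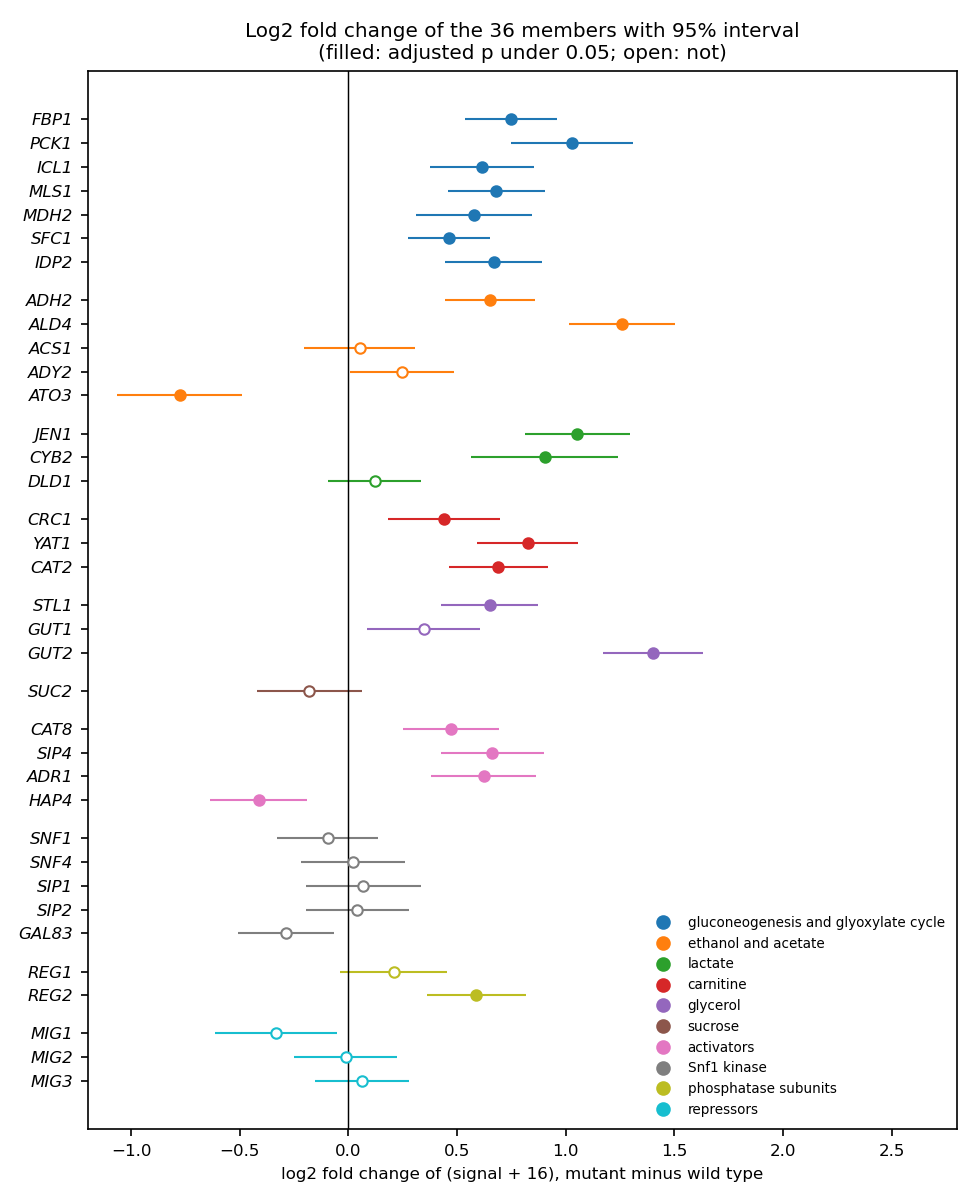
Log2 fold change of (signal + 16), mutant minus wild type, for each of the 36 genes, with bars for the 95% interval and colours for roles. Filled points had an adjusted p under 0.05. GUT2 at 1.40 and ALD4 at 1.26 lie farthest right, ATO3 at -0.78 farthest left, and the 5 Snf1 kinase genes are all open.

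Genes for 3 of the 4 activators rose in the mutant, and HAP4 was lower, where 14.8% of all genes rose and 13.1% fell. Cat8 and Sip4 are zinc cluster activators that bind carbon source-responsive elements of gluconeogenic genes, and the zinc finger activator Adr1 acts on ADH2 and on genes of peroxisomes and glycerol use. ADR1 read 18.7 and 17.6 in wild type against 39.4 and 33.8 in the mutant, a log2 fold change of 0.62 ± 0.106 (adjusted p = 0.00399). SIP4 read 9.7 and 8.8 against 27.1 and 21.0, a change of 0.66 ± 0.104 (adjusted p = 0.00282). CAT8 read 4.9 and 7.6 against 16.3 and 13.4, a change of 0.47 ± 0.0959 (adjusted p = 0.00884). All 3 had separated groups, and the wild-type values of SIP4 and CAT8 were within the range of the controls with no target. Dropping wild-type replicate 1 ended the CAT8 call (adjusted p = 0.0906).

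HAP4, for the regulated subunit of the Hap complex that activates respiratory genes, went the other way. It gave 109.9 and 105.0 in wild type against 76.4 and 77.0 in the mutant, a log2 fold change of -0.41 ± 0.098 (adjusted p = 0.0168). The replicates were close within each group, yet HAP4 missed the threshold in each of the 4 fits on 3 arrays (adjusted p between 0.0556 and 0.0906), at values from -0.44 to -0.38. The genes for the other Hap subunits, HAP2, HAP3 and HAP5, gave 0.03, -0.07 and 0.16 and did not pass. They are named for their place in the complex, after their values were seen.

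None of the 5 genes for the Snf1 kinase complex passed, where 27.9% of all genes were called. At an unadjusted p under 0.05, where 20.6% of all genes were lower, 1 did, GAL83. SNF1, the catalytic subunit gene, read 87.2 and 85.7 in wild type against 76.6 and 83.3 in the mutant, with a 95% interval of -0.33 to 0.14. SNF4, for the nucleotide-binding gamma subunit, read 84.7 and 79.7 against 79.6 and 87.8, with an interval of -0.22 to 0.26. The 3 beta subunits direct the kinase to different places in the cell and differed among themselves in value. SIP1 gave 51.6 and 44.1 against 53.3 and 48.4, SIP2 gave 30.5 and 33.2 against 33.3 and 33.1, and both pairs of groups overlapped. GAL83, for the beta subunit that takes Snf1 to the nucleus, gave 117.3 and 121.9 against 92.1 and 97.9, lower on both mutant arrays. Its log2 value was -0.29 (adjusted p = 0.0563), and under median centring it was called lower, at -0.32 (adjusted p = 0.0390). Scaling to the hybridization controls called 2748 of all 5656 genes lower. SNF1 and GAL83 were among them, at -0.45 (adjusted p = 0.0171) and -0.65 (adjusted p = 0.000321).

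The genes for the phosphatase subunits that restrain Snf1 signalling gave 1 rise among 2, where 14.8% of all genes rose. REG1 read 54.9 and 55.1 in wild type against 62.6 and 69.5 in the mutant, a change of 0.21 (adjusted p = 0.183). REG2, its paralog, which is itself glucose-repressed, read 16.8 and 15.3 against 33.6 and 30.7. The REG2 groups were well apart, with a log2 fold change of 0.59 ± 0.0996 (adjusted p = 0.00389).

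The genes for the zinc finger repressors Mig1, Mig2 and Mig3 did not pass, 0 of 3, where 27.9% of all genes were called. At an unadjusted p under 0.05 MIG1 alone passed, as lower, where 20.6% of all genes were lower. MIG1 read 48.1 and 38.0 in wild type against 32.4 and 28.9 in the mutant, a log2 value of -0.34 ± 0.123 with an adjusted p of 0.0731. Both mutant arrays were lower, and MIG1 passed in 4 alternative fits, among them median centring (adjusted p = 0.0306). MIG2 gave 176.0 and 203.8 against 179.3 and 196.3, with a 95% interval of -0.25 to 0.22. MIG3 gave 16.2 and 15.3 against 18.7 and 15.7, so the groups overlapped for both.

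The isozymes and paralogs of these enzymes show how far each family moved with its listed member. The list also holds the pyruvate carboxylase genes PYC1 and PYC2, which are not relatives of PCK1 but act beside it in gluconeogenesis. The 16 genes of the list gave 4 rises, 3 falls and 9 values that did not pass. Over all genes 14.8% rose and 13.1% fell. The median log2 fold change of the 16 was 0.15. ATO2, a further relative of ADY2 and ATO3, read 12.1 and 12.2 in wild type against 39.8 and 37.9 in the mutant, a change of 0.96 ± 0.0966 (adjusted p = 0.000332). The ATO genes thus gave a called rise, a called fall and an uncalled value of 0.25 for ADY2. YAT2, another carnitine acetyltransferase gene, read 17.5 and 17.7 against 47.3 and 52.5, a change of 0.97 ± 0.105 (adjusted p = 0.000484). CAT2, YAT1 and YAT2, the carnitine acetyltransferase genes measured here, therefore all rose.

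Acetyl-CoA synthetase and malate dehydrogenase isozymes differed in their calls. ACS2, for the synthetase that serves cells growing on glucose, fell from 688.7 and 661.1 to 518.0 and 511.5, a change of -0.38 ± 0.0878 (adjusted p = 0.0152). MDH1, for the mitochondrial malate dehydrogenase, rose from 678.9 and 678.1 to 932.5 and 971.9 (0.48, adjusted p = 0.00636), while MDH3, for the peroxisomal enzyme, fell from 182.6 and 189.8 to 145.3 and 144.2 (-0.33, adjusted p = 0.0271). The ACS2 and MDH3 groups did not overlap. Leaving out 1 array ended the ACS2 call in 3 of 4 fits (adjusted p up to 0.0884), the MDH3 call in 4 of 4 (up to 0.117) and the MDH1 call without mutant replicate 2 (0.0563). Scaling to the bacterial or hybridization controls also ended the MDH1 call (adjusted p = 0.235 and 0.720).

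ICL2, a mitochondrial relative of isocitrate lyase, rose from 55.3 and 59.0 to 77.6 and 90.9 (0.45, adjusted p = 0.0207), a call lost in 3 of 4 fits without 1 array (adjusted p up to 0.147) and under both control scalings (0.408 and 0.592). DLD2, a relative of DLD1 that oxidises D-2-hydroxyglutarate, fell from 105.7 and 107.8 to 72.1 and 62.8 (-0.56, adjusted p = 0.00651), a call lost in 3 of 4 such fits (up to 0.0565). ADH1, for the fermentative alcohol dehydrogenase, gave 3790.8 and 4296.9 in wild type against 4865.0 and 5562.5 in the mutant. Its log2 value of 0.36 did not pass (adjusted p = 0.0801), and passed with the replicate number as a block (adjusted p = 0.00225) or with no intensity trend (0.0474). ADH1 and ADH2 are close in sequence, and cross-hybridisation between their probe sets was not tested.

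The remaining genes of this list did not pass. The log2 values were 0.31 for ALD5 and -0.19 for ALD6, relatives of ALD4. ALD6 was called lower under scaling to the bacterial (adjusted p = 0.034) or hybridization controls (0.000274), as were 884 and 2748 of all 5656 genes. IDP1 and IDP3 gave 0.11 and 0.09, DAL7, a second malate synthase gene, gave 0.03, and DLD3 gave 0.09. The pyruvate carboxylase genes PYC1 and PYC2, which act before PCK1 in gluconeogenesis, gave 0.22 and 0.19.

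**Figure D3:**
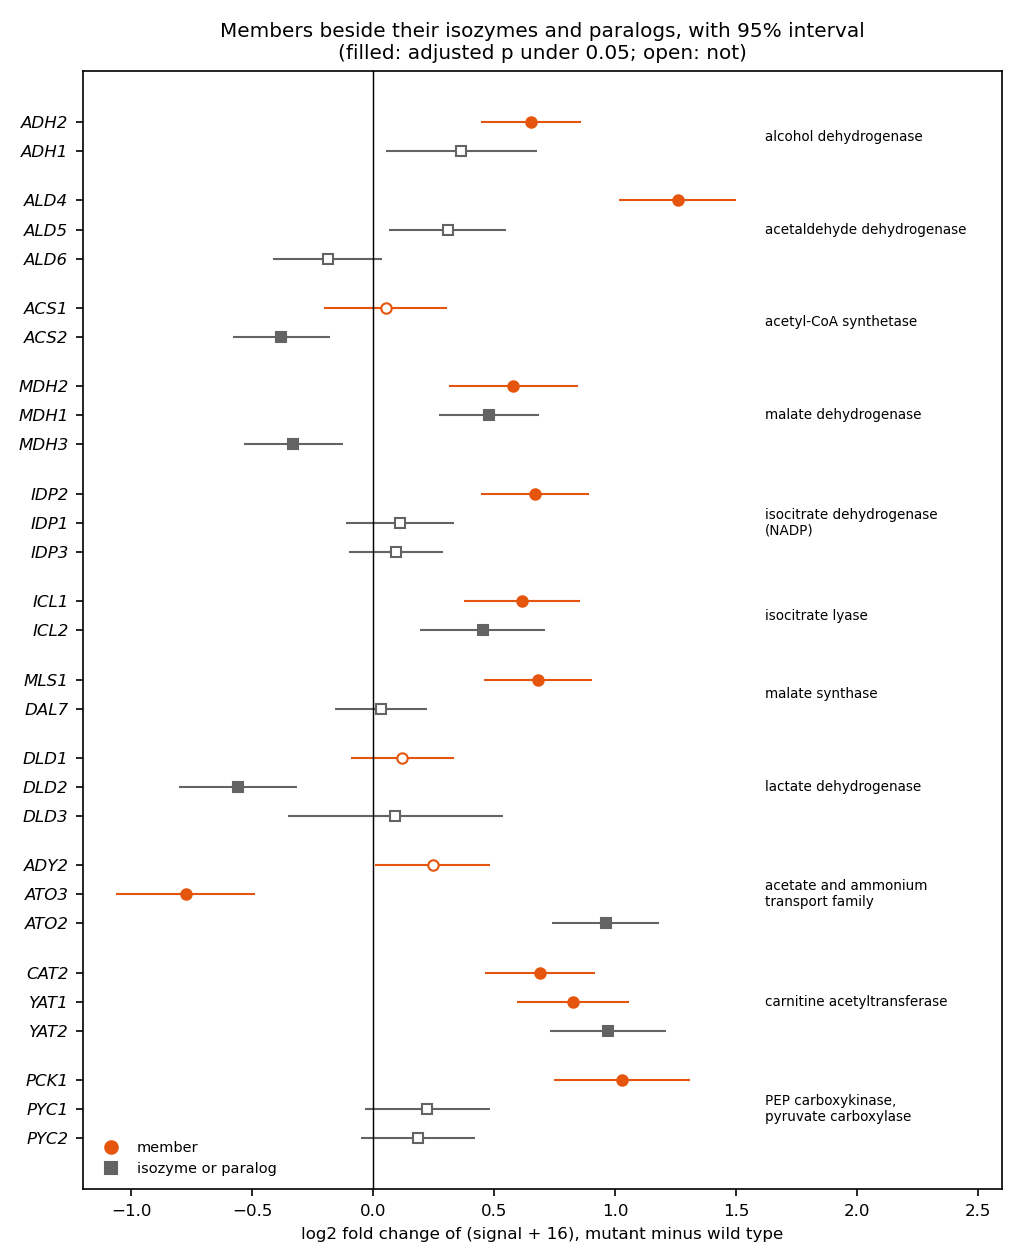
Log2 fold change of (signal + 16), mutant minus wild type, of the listed genes (circles) beside their isozymes and paralogs (squares), grouped by enzyme family, with bars for the 95% interval. PYC1 and PYC2, drawn beside PCK1, are not of its family. Filled symbols had an adjusted p under 0.05. In the acetate and ammonium transport family ATO2 at 0.96 and ATO3 at -0.78 lie on opposite sides of 0, and all 3 carnitine acetyltransferase genes lie to the right.

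Other genes known to be repressed by glucose also tended upward. The 20 such genes act in galactose use, peroxisomal oxidation of fatty acids, hexose phosphorylation and respiration. Of them 10 rose, 0 fell and 10 did not pass, where 14.8% of all genes rose and 13.1% fell. The median log2 fold change of the 20 was 0.33. At an unadjusted p under 0.05, 13 were higher and 0 lower, where 20.4% and 20.6% of all genes were. FAA2, for a peroxisomal acyl-CoA synthetase, gave 12.0 and 10.9 in wild type against 31.2 and 28.9 in the mutant (0.75, adjusted p = 0.00104). FOX2, for a multifunctional enzyme of beta-oxidation, gave 26.1 and 25 against 51.4 and 52.1 (0.71, adjusted p = 0.00202). The groups were clearly apart for both. MBR1, linked to mitochondrial function, gave 34.6 and 25.8 against 69.6 and 66.4 (0.87, adjusted p = 0.00183), and CTA1, for the peroxisomal catalase, gave 10 and 9.8 against 21.6 and 22.0 (0.55, adjusted p = 0.003). Scaled to the bacterial or the hybridization controls, 7 of the 20 were called higher, where 306 and 313 of all 5656 genes were. The medians of the 20 were then 0.18 and 0.0682.

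Partners of the Snf1 pathway were called at about the share of all genes (27.9%). Of 18 genes for Snf1-activating kinases, the Glc7 phosphatase, glucose signalling proteins, corepressors and further activators, 2 rose, 3 fell and 13 did not pass, with a median of -0.03. PIP2, for an activator of peroxisomal genes, read 33.2 and 31.6 in wild type against 63.1 and 55.9 in the mutant (0.64, adjusted p = 0.00415). TOS3, for a kinase that activates Snf1, read 38.8 and 40.7 against 62.2 and 60.6 (0.47, adjusted p = 0.0129). The genes that fell were TUP1 (-0.39, adjusted p = 0.0258), for the corepressor that Mig1 recruits, STD1 (-0.35, adjusted p = 0.0318), for a glucose-sensing regulator, and RDS2 (-0.36, adjusted p = 0.0399), for a regulator of gluconeogenic genes named after its value was seen. Leaving out 1 array ended the call of TOS3, STD1 and RDS2 in every such fit and that of TUP1 in 3 of 4 (adjusted p up to 0.194 for RDS2). Under scaling to the hybridization controls 0 of the 18 rose and 9 fell, where 313 of all 5656 genes rose and 2748 fell. PIP2 and TOS3 were not called there (adjusted p = 0.0764 and 0.430). Under scaling to the bacterial controls 0 rose and 2 fell, where 306 of all 5656 genes rose and 884 fell. PIP2, TOS3 and RDS2 were not called there (adjusted p = 0.0923, 0.325 and 0.0591).

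The glucose-induced degradation genes encode the GID ubiquitin ligase, which removes Fbp1, Pck1, Mdh2 and Icl1 proteins when glucose returns. The 9 genes gave 4 rises, 0 falls and 5 values that did not pass, where 14.8% of all genes rose and 13.1% fell. The median of the 9 was 0.17. At an unadjusted p under 0.05 the counts were also 4 and 0, where the shares of all genes were 20.4% and 20.6%. GID7 read 44.5 and 43.4 in wild type against 64.5 and 73.1 in the mutant (0.50, adjusted p = 0.0126), and GID8 read 42.2 and 49.9 against 75.6 and 64.5 (0.47, adjusted p = 0.0228). VID30 and RMD5, for further subunits, gave 0.40 (adjusted p = 0.0188) and 0.42 (adjusted p = 0.0271). Both of these subunits and GID7 and GID8 lost their calls in 3 or 4 of the fits on 3 arrays. Under scaling to the bacterial controls 0 of the 9 rose and 0 fell, where 306 and 884 of all 5656 genes did. Under scaling to the hybridization controls 0 rose and 1 fell, where 313 and 2748 of all genes did.

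Many of these genes are dim in glucose-grown cells, so their counts were also set beside genes of similar signal. Signals of different probe sets are not levels on a common scale, so the bins only sort by brightness. Genes were put in 3 bins of equal size by mean log2 signal over all 4 arrays. In the dimmest bin 12 of 16 listed genes rose, and 0 fell, where 15.9% of all 1885 genes rose and 8.12% fell, and the listed genes had a median log2 fold change of 0.60 against 0.03. In the middle bin 5 of 14 rose and 1 fell, against 16% and 14.5% of all genes, with medians of 0.14 and -0.03. In the brightest bin 3 of 6 rose and 1 fell, against 12.5% and 16.8%, with medians of 0.35 and -0.03. Wild-type values within the range of the controls with no target were found for 5 listed genes (FBP1, SFC1, STL1, CAT8 and SIP4), and for no listed gene were the values of both strains within it.

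**Figure D4:**
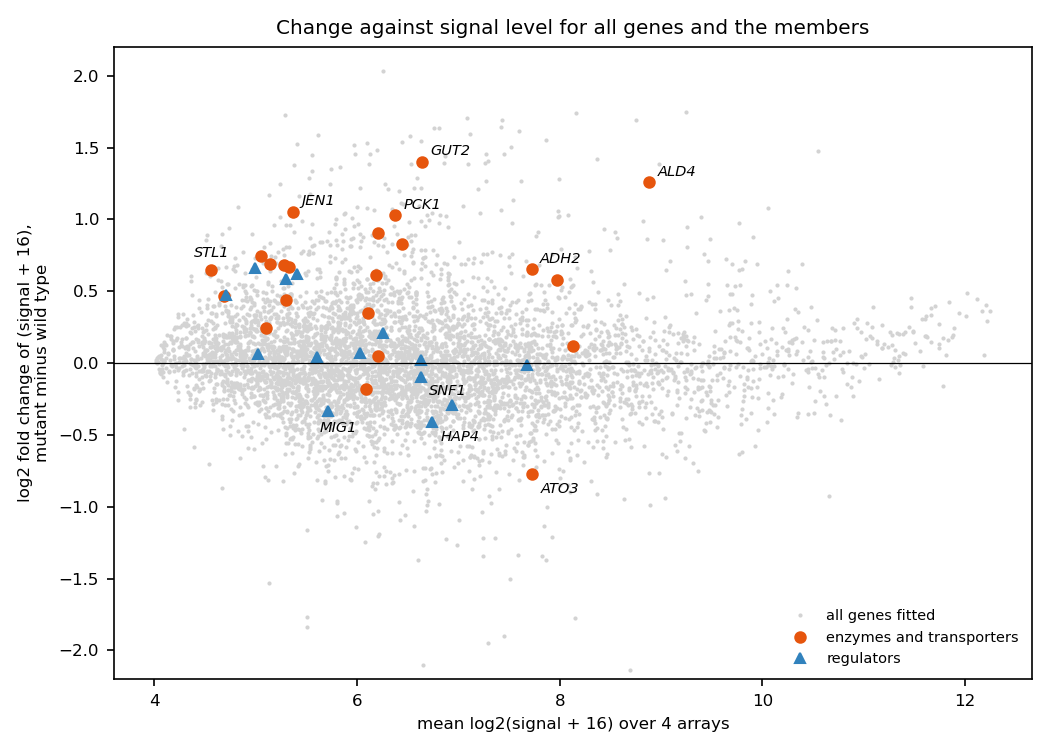
Log2 fold change of (signal + 16), mutant minus wild type, against mean log2(signal + 16) over the 4 arrays, for all 5656 genes (grey), the 22 enzyme and transporter genes (circles) and the 14 regulators (triangles). The axis stops at 2.2 in either direction, which leaves 17 genes outside it. ALD4 is a bright gene with a large rise, and most other listed genes that rose lie at low or middle signal.

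The sign of the rises did not depend on scaling, but their number did. When scaled to the hybridization controls the median change over all genes was -0.33 and 10.2% of calls were higher, against 52.9% as deposited. When scaled to the bacterial controls these were -0.18 and 25.7%. With either scaling 16 of the 36 genes were called higher, against 313 (hybridization controls) and 306 (bacterial controls) of all 5656. The enzyme and transporter median was 0.36 and 0.49, so it stayed above the median of all genes. The 7 genes called lower under hybridization control scaling were SUC2, SNF1, GAL83, MIG1, MIG2, ATO3 and HAP4, and under bacterial control scaling 2 were. Of all 5656 genes 2748 and 884 were called lower under these scalings. Of the 22 calls, 13 held in every alternative fit in which the gene was fitted: PCK1, FBP1, MLS1, IDP2, ALD4, ATO3, JEN1, YAT1, CAT2, GUT2, SIP4, ADR1 and REG2.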

How the data were processed

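The authors made the values with MAS5, per the submitters' processing notes, which give neither a version nor a scaling target. Each deposited value is a linear intensity, from 0 to 7497, with 79 zeros. Of 9335 probe sets, 6504 had 1 gene in the platform's annotation, 328 had several and 2503 none. All 6504 gene identifiers matched the current reference gene table, and 0 symbols changed.

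Each gene was represented by its brightest probe set, without a signal filter, which left 5656 genes. Testing used limma 3.58.1 (R 4.3.3) on log2(signal + 16), with trended empirical Bayes variances, Benjamini-Hochberg adjustment over all genes and a threshold of 0.05. The median SE was 0.106, with 2 residual degrees of freedom and 6.35 added by the prior. The test was checked on simulated data with independent noise, a check that does not cover array scaling or technical replicates. The number of arrays limits the precision.

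The listed genes, the companion lists and the tests were chosen with earlier results of these data known. All 36 listed genes and all genes of the isozyme and paralog list are reported. From the other companion lists up to 4 called genes by moderated statistic are reported. Replicate numbers were not treated as pairs. Alternatives varied the signal filter, offset, scaling, probe sets, variance model and arrays. Plots were made in matplotlib 3.10.9 (Python 3.11.15).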

Additional observations from a re-analysis of the deposited data

How the results depend on the processing

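With 1 array left out, 15 (without wild-type replicate 1) to 21 of the 36 genes were called, 14 to 20 higher and 1 to 1 lower, and the median log2 fold change lay between 0.40 and 0.55. Over all genes the calls lay between 643 and 806, with 429 to 471 higher and 214 to 363 lower, against 1579, 836 and 743. The filter at the 25th percentile kept 22 of the 36 genes, of which 11 were called, 9 of them higher, with a median of 0.0940. It kept 4242 genes in all, of which 1308 were called, 622 higher and 686 lower. The filter at the median kept 12, with 7 called, 5 higher and a median of 0.0706. Of the 2828 genes it kept in all, 861 were called, 385 higher and 476 lower. The filters act on mean log2 signal over all arrays, so they also remove genes that are dim mainly in wild type, and 12 of the 14 and 15 of the 24 genes left out were called higher without a filter. An offset of 1 gave a median of 0.71 and an offset of 64 gave 0.20. Median centring gave 0.44 and 4 lower, where 945 of all 5656 genes were lower, against 743 as deposited. Quantile normalization gave 0.39, scaling to the bacterial controls 0.37, and scaling to the hybridization controls 0.23 and 7 lower. The fit without the stretch of probe sets where the mutant arrays disagreed held 26 of the 36 genes, with a median of 0.58. Of these 18 were called higher and 1 lower, where 772 and 679 of all 4813 genes were. ATO3 lies in that stretch, so it was not fitted there. An adjusted p threshold of 0.01 left 1 lower, with 702, 432 and 270 genes in all. Scaling to the hybridization controls called 3061 genes, 313 higher and 2748 lower, and scaling to the bacterial controls called 306 higher. The bacterial scaling and the fit without that stretch were chosen after seeing the data.

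Same-numbered arrays deviated together at r = 0.125 across genes, with 2 pairs, so the numbers were not taken as pairs. With the replicate block 24 of the 36 genes were called, 21 higher and 3 lower, with GUT1 and MIG1 added, and 2083 genes in all. The block also added ALD5 (adjusted p = 0.0359) and ADH1, and changed no other call of a named gene.

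Signs turned only for genes that were not called. Under median centring SNF4 gave -0.011 and DAL7 -7.5e-05, and under quantile normalization DAL7 gave -0.058, MIG2 0.028 and MIG3 -0.028. Scaled to the bacterial controls ACS1 gave -0.13, DLD1 -0.096, SNF4 -0.17, SIP1 -0.11, SIP2 -0.11, MIG3 -0.053, DAL7 -0.062, DLD3 -0.11, IDP1 -0.11, IDP3 -0.015 and PYC2 -0.036. Scaled to the hybridization controls ACS1 gave -0.28, DLD1 -0.28, REG1 -0.13, SNF4 -0.33, SIP1 -0.25, SIP2 -0.24, MIG3 -0.15, ADH1 -0.055, ALD5 -0.070, DAL7 -0.14, DLD3 -0.27, IDP1 -0.29, IDP3 -0.10, PYC1 -0.17 and PYC2 -0.22. With 1 array left out ACS1 ranged from -0.024 to 0.13, SNF4 from -0.038 to 0.080, SIP1 from -0.017 to 0.15, SIP2 from -2.98e-06 to 0.081, MIG2 from -0.11 to 0.085, MIG3 from -0.0021 to 0.13, DAL7 from -0.0053 to 0.069 and DLD3 from -0.24 to 0.42. The cause of these changes was not tested.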
